A study of Mus musculus with 8 samples.

Results

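The genes described here encode 10 enzymes of lipogenesis and triglyceride synthesis, namely *Acly*, *Acaca*, *Fasn*, *Elovl6*, *Scd1*, *Scd2*, *Gpam*, *Agpat2*, *Dgat1* and *Dgat2*. They were chosen by name for their place in the pathway, out of 31053 genes in the counts, and each was found by its Ensembl identifier. Fibro/adipogenic progenitors (FAPs) are mesenchymal cells of skeletal muscle that can become adipocytes or fibroblasts. In *mdx* mice, which carry a mutation of the dystrophin gene, they are one source of the fat that fills degenerating muscle. The paper places this fat in old *mdx* animals only. The study asked whether FAPs with much or little surface SCA-1 differ in their transcriptome before any adipogenic stimulus is given. In both groups the cells came from the hind limb muscles of C57BL/10ScSn-Dmdmdx/J mice aged 45 days and were depleted of leucocytes, endothelial cells and myogenic cells with antibodies to CD45, CD31 and ITGA7. SCA1-High-FAPs (n = 4) and SCA1-Low-FAPs (n = 4) were sorted by their surface SCA-1 and then kept for 5 days in growth medium (GM) with 20% fetal bovine serum and 1 mM sodium pyruvate before RNA was taken. The design text gives 4 mice for the 8 samples. No wild type or freshly sorted FAPs are part of the comparison, and the separate replicates are the only measure of error, so that *p*-values refer to the spread between these samples.

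Lipogenesis turns surplus carbon into fat. Citrate exported from mitochondria is cleaved to acetyl-CoA, acetyl-CoA is carboxylated to malonyl-CoA, and fatty acid synthase condenses both into palmitate, which elongases lengthen and desaturases make fluid. The acyl chains are then fixed in series to glycerol-3-phosphate by acyltransferases, and the last step, from diacylglycerol to triglyceride, fills the lipid droplet of the adipocyte. In adipocytes the genes of these steps are under the control of insulin, the sterol element binding proteins and PPAR-gamma.

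RNA was measured with 3′ mRNA libraries, in which reads come from the end of the transcript. The level of a gene is compared between samples. Sums and shares over several genes are of reads and were not tested as amounts of transcript. Total counts on genes were 1880561 to 3985656 per sample, and 37.5% to 39.7% of reads in SCA1-High-FAPs and 40.8% to 43.3% in SCA1-Low-FAPs had more than one position in the genome and were given to no gene. Levels are given as CPM, counts made comparable between libraries of different size by TMM normalisation, and 3 counts corresponded to 0.753 to 1.6 CPM. The mRNA of *Ly6a*, the gene of SCA-1, went against the sort after 5 days of culture. It was at 492, 789, 645 and 919 CPM in SCA1-High-FAPs and at 1014 to 1156 CPM in SCA1-Low-FAPs, with log2 fold change 0.61 ± 0.17 (SE, its standard error, adjusted p = 0.0341), and it passed in 1 of the 8 fits that each left out a replicate and not with the replicate number as a block (adjusted p = 0.0573). The names of the cell states stand for the surface level at the sort. All 8 FAP markers examined were expressed, with summed levels of 2110 to 2715 CPM, 2 of them (*Dcn*, *Gsn*) higher in SCA1-High-FAPs and 2 (*Ly6a*, *Thy1*) higher in SCA1-Low-FAPs. Of 7 myogenic markers, *Pax7*, *Myod1*, *Myf5* and *Myog* had no count in any library. The others, *Itga7* (0 to 9.80 CPM), *Des* (0 to 2.72 CPM) and *Cdh15* (1 count in all), were detected. The 7 summed to at most 12.5 CPM, and 6 endothelial markers to at most 7.39 CPM. Of 7 leucocyte markers only *Lyz2* had enough counts for a test and was higher in SCA1-High-FAPs, with summed levels of 25.3 to 48.0 CPM against 12.5 to 19.3 CPM, while *Adgre1*, *Itgam* and *Cd3e* were at 0. Of 7 mural and Schwann cell markers, *Notch3* was higher in SCA1-High-FAPs and *Cspg4* in SCA1-Low-FAPs, in 1 and 2 of those 8 fits, and with the block *Notch3* missed (adjusted p = 0.0955). The 10 adipocyte markers, which matter most for lipogenic genes, are given with the results.

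The DNA in front of these genes was read from the RefSeq promoter table (build GRCm38.p6), as the 250 bases that precede the start of a RefSeq transcript. These starts can differ from the gene positions given below, which come from another annotation. The *Elovl6* window ends at 129532385, past the gene start given below. Windows were found for 6 of the 10 genes, not for *Scd1*, *Scd2*, *Dgat1* and *Dgat2*. Both strands were searched for the core of a sterol element (TCACNCCAC), the E-box CACGTG, the CCAAT box (CCAAT) and the GC box (GGGCGG), which 1.05%, 6.02%, 33.8% and 32.7% of 32851 mouse promoter windows of this length contain. The windows of 3 genes are printed 5′ to 3′ with matches in capitals: *Elovl6*, whose mRNA was higher in SCA1-Low-FAPs, *Agpat2*, whose mRNA was higher in SCA1-High-FAPs, and *Fasn*, which did not pass the test.
Elovl6, chr3:129532136-129532385, plus strand: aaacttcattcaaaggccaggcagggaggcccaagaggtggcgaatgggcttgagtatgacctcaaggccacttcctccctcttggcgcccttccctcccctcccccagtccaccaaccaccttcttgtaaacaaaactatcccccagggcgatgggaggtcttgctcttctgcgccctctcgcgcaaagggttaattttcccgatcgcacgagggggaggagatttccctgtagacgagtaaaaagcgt
Agpat2, chr2:26604418-26604667, minus strand: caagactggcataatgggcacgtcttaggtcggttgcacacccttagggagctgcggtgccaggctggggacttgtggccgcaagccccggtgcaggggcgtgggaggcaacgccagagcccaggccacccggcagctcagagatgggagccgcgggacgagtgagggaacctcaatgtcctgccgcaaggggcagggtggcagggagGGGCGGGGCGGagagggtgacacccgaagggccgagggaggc
Fasn, chr11:120824548-120824797, minus strand: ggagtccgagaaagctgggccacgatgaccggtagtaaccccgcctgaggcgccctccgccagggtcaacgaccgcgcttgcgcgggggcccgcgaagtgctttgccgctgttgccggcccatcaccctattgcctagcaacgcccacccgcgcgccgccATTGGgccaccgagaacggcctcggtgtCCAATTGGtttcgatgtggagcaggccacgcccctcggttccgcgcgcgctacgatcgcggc
The *Elovl6* window held none of the 4 motifs and had a GC content of 56.4%. The *Agpat2* window held 2 GC boxes that share a base, beginning 42 and 37 bases before the start, in DNA of 69.2% GC. The *Fasn* window, also of 69.2% GC, held 3 matches to the CCAAT box, the first, on the opposite strand, beginning 90 bases before the start and the others, which overlap, beginning 62 and 59 bases before it. Among the windows not printed, that of *Acly* held 4 GC boxes, those of *Gpam* a CCAAT box in one and a GC box in the other of its 2 windows, and that of *Acaca* no match. The *Acaca* window (chr11:84195188-84195437) and the *Gpam* window with the GC box (chr19:55099478-55099727) lie inside their genes as placed below. These 2 windows do not stand for the DNA in front of those gene starts. All matches given here are of letters and not sites of binding.

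All 10 genes had enough counts to be tested. A gene was called when its adjusted *p*-value in edgeR's quasi-likelihood test was under 0.05 and its log2 fold change was above 0.5 or below −0.5. Each log2 fold change divides the level in SCA1-Low-FAPs by that in SCA1-High-FAPs and is negative where SCA1-High-FAPs held more mRNA. *Scd1*, *Agpat2* and *Dgat1* were higher in SCA1-High-FAPs, *Elovl6* was higher in SCA1-Low-FAPs, and 6 genes did not pass. Of all 10181 genes tested, 7.68% passed, 4.36% with more mRNA in SCA1-High-FAPs and 3.32% with more in SCA1-Low-FAPs. The median log2 fold change was −0.75 over the 10 genes and 0.00029 over all genes tested, and 8 of the 10 values were negative. The libraries of the states did not overlap for 1 gene above in SCA1-High-FAPs (*Dgat1*) and 1 above in SCA1-Low-FAPs (*Elovl6*), where the shares over all tested genes were 7.46% and 6.67%.

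**Figure D1:**
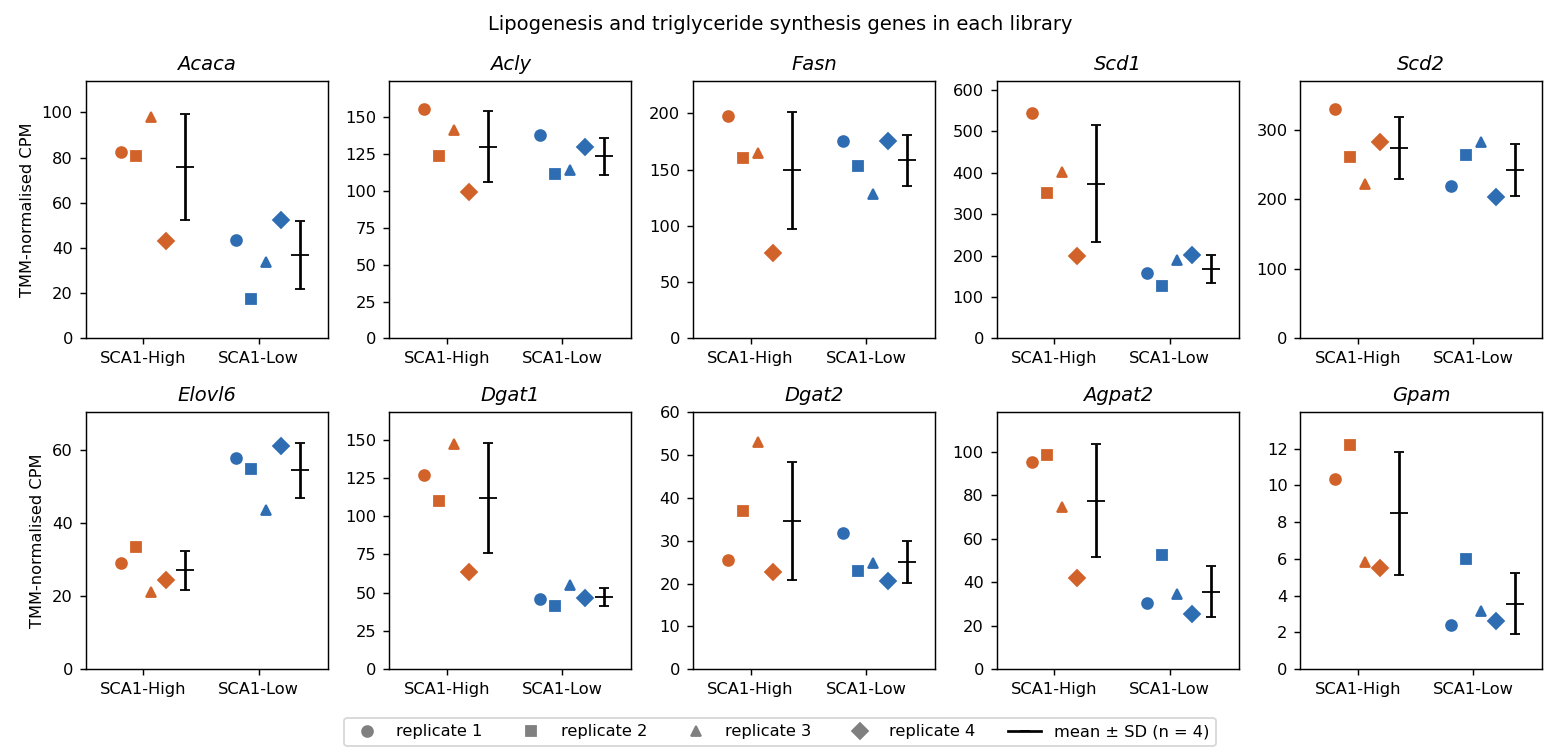
TMM-normalised CPM of the 10 genes (vertical axis, from 0, a scale for each gene) in the 4 libraries of SCA1-High-FAPs (orange) and of SCA1-Low-FAPs (blue), with the mean ± SD of each state as a black bar and the replicate number as the marker shape. The states do not overlap for *Dgat1* and *Elovl6*, in opposite directions, and replicate 4 of SCA1-High-FAPs (diamond) lies below the other libraries of its state for 8 of the 10 genes.

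The enzymes that make palmitate showed no difference between the cell states that passed the test. *Acly* encodes ATP citrate lyase, the source of cytosolic acetyl-CoA, (GRCm38, chromosome 11, 100476353 to 100528000). Transcripts were at 156, 124, 141 and 99.4 CPM in replicates 1 to 4 of SCA1-High-FAPs and at 138, 112, 114 and 129.9 CPM in those of SCA1-Low-FAPs. All values of SCA1-Low-FAPs lay inside the range of SCA1-High-FAPs. The log2 fold change was −0.07 (95% confidence interval −0.43 to 0.28, adjusted p = 0.864), so that a change of 0.5 in either direction lay outside the interval, and it was 0.03 without replicate 1 of SCA1-High-FAPs. *Acaca* (chromosome 11, 84129672 to 84401651) encodes acetyl-CoA carboxylase 1, which makes malonyl-CoA and is held to be the rate-limiting enzyme of the pathway. It was at 82.4, 80.5, 98.1 and 42.9 CPM in SCA1-High-FAPs and at 43.5, 17.4, 33.9 and 52.5 CPM in SCA1-Low-FAPs. Replicates 1 to 3 of SCA1-High-FAPs stood above all of SCA1-Low-FAPs, whereas replicate 4 stood below 2 of them. For *Acaca* the log2 fold change of −1.02 (SE 0.30, interval −1.67 to −0.38) missed the threshold in edgeR (adjusted p = 0.0509). It passed without replicate 4 of SCA1-High-FAPs (adjusted p = 0.0143), without replicate 4 of SCA1-Low-FAPs (adjusted p = 0.0379), with no filter on low counts (adjusted p = 0.00531) and in DESeq2 (adjusted p = 0.0217), and the call therefore depends on the fit. *Fasn* (chromosome 11, 120805846 to 120824547), the gene of fatty acid synthase, was at 197, 160.5, 165 and 75.5 CPM in SCA1-High-FAPs and at 175, 153, 128 and 176 CPM in SCA1-Low-FAPs. Replicate 4 of SCA1-High-FAPs was the lowest of the 8 libraries and the others overlapped. The log2 fold change of *Fasn* was 0.08 (SE 0.23, interval −0.41 to 0.57, adjusted p = 0.893), and −0.14 without that replicate.

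Of the genes that lengthen and desaturate palmitate, *Elovl6* and *Scd1* passed the test in opposite directions. *Elovl6* (chromosome 3, 129532355 to 129638495) encodes the elongase that takes palmitate to stearate. It was at 29.2, 33.5, 21.3 and 24.6 CPM in SCA1-High-FAPs and at 58.0, 55.0, 43.8 and 61.2 CPM in SCA1-Low-FAPs. Every library of SCA1-Low-FAPs held more than every library of SCA1-High-FAPs. The means were 27.1 ± 5.32 and 54.5 ± 7.60 CPM (SD, n = 4 each), and the log2 fold change was 1.01 (SE 0.23, adjusted p = 0.0116), or 2.01 times more in SCA1-Low-FAPs. *Elovl6* passed in 7 of the 8 fits that left out a replicate, and without replicate 4 of SCA1-Low-FAPs it missed (log2 fold change 0.94, adjusted p = 0.0534). *Scd1* (chromosome 19, 44394455 to 44407879) encodes the stearoyl-CoA desaturase of adipose tissue and liver, which turns stearate and palmitate into oleate and palmitoleate. Its mRNA was at 544, 352, 401 and 199 CPM in SCA1-High-FAPs and at 158, 126, 188 and 201 CPM in SCA1-Low-FAPs. Replicates 1 to 3 of SCA1-High-FAPs lay above all of SCA1-Low-FAPs, and replicate 4 lay just under the highest of them. With means of 374 ± 142 and 168 ± 33.6 CPM (SD, n = 4 each), *Scd1* was 2.21 times more abundant in SCA1-High-FAPs (log2 fold change −1.15, SE 0.26, adjusted p = 0.0159). The call was lost without replicate 3 of SCA1-High-FAPs (adjusted p = 0.0561) and without replicate 1 of SCA1-Low-FAPs (adjusted p = 0.0578), with log2 fold changes of −1.11 in both. *Scd2* (chromosome 19, 44293674 to 44306864), a neighbouring gene, encodes a desaturase of wider expression. It was at 331, 261, 223 and 283 CPM in SCA1-High-FAPs and at 219.9, 264, 283 and 204 CPM in SCA1-Low-FAPs, and the libraries of the states were interleaved. The log2 fold change was −0.18 (SE 0.16, interval −0.51 to 0.16, adjusted p = 0.581). The last 500 bases of *Scd1* and *Scd2* held no stretch of 50 bases found in the same orientation in transcripts of another gene. This held for all 10 genes, so that reads from the ends of the paralogs *Scd1* and *Scd2* can be told apart. The opposite orientation was not searched, so that an overlap with a gene on the other strand, as for *Agpat2* below, is not covered.

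Among the acyltransferases that build triglyceride, *Agpat2* and *Dgat1* were higher in SCA1-High-FAPs. *Gpam* (chromosome 19, 55067268 to 55127238) encodes the mitochondrial glycerol-3-phosphate acyltransferase, the first step. It was the gene with the fewest reads, 5 to 27 counts per library, and stood at 10.4, 12.2, 5.84 and 5.50 CPM in SCA1-High-FAPs and at 2.42, 5.99, 3.17 and 2.64 CPM in SCA1-Low-FAPs. Replicates 1 and 2 of SCA1-High-FAPs were above the rest, and replicates 3 and 4 were level with replicate 2 of SCA1-Low-FAPs. *Gpam* did not pass, at a log2 fold change of −1.27 with an SE of 0.56 and an interval from −2.44 to −0.09 (adjusted p = 0.194). *Agpat2* (chromosome 2, 26593057 to 26604417) encodes the 1-acylglycerol-3-phosphate acyltransferase of adipose tissue, whose loss causes lipodystrophy. It was at 95.1, 98.6, 74.3 and 41.8 CPM in SCA1-High-FAPs and at 30.5, 52.3, 34.6 and 25.3 CPM in SCA1-Low-FAPs. The states overlapped in that replicate 4 of SCA1-High-FAPs lay below replicate 2 of SCA1-Low-FAPs. Means of 77.4 ± 26.1 and 35.7 ± 11.7 CPM (SD, n = 4 each) differed by a log2 fold change of −1.13 ± 0.28 (SE, adjusted p = 0.0192), 2.19 times more in SCA1-High-FAPs. Of the 4 called lipogenic genes, *Agpat2* passed in the fewest fits that left out a replicate, 4 of 8, with adjusted *p*-values of 0.0604 and 0.0622 without replicates 1 and 2 of SCA1-High-FAPs and of 0.0726 and 0.0682 without replicates 1 and 4 of SCA1-Low-FAPs, at log2 fold changes of −1.06 to −0.98. Its 3′ end overlaps *Egfl7*, which had 3.27 to 9.60 CPM, and *Gm20532*, which was at 0 in every library, both on the opposite strand. The strand setting of the counting is not given in the sources used here, so that reads of the shared stretch may not be told apart.

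*Dgat1* and *Dgat2* encode unrelated proteins that both carry out the last step, the acylation of diacylglycerol. *Dgat1* (chromosome 15, 76502015 to 76511953) was at 127, 109.9, 147 and 63.4 CPM in SCA1-High-FAPs and at 45.9, 41.4, 55.2 and 46.7 CPM in SCA1-Low-FAPs. Even the lowest library of SCA1-High-FAPs, replicate 4, held more than the highest of SCA1-Low-FAPs, replicate 3. The means of 112 ± 35.7 and 47.3 ± 5.76 CPM (SD, n = 4 each) had a log2 fold change of −1.23 ± 0.23 (SE, adjusted p = 0.00298), which corresponds to 2.35 times more in SCA1-High-FAPs. *Dgat1* passed in all 8 fits that left out a replicate, with values from −1.43 to −1.07. *Dgat2* (chromosome 7, 99153658 to 99182719) was at 25.4, 37.1, 53.0 and 22.7 CPM in SCA1-High-FAPs and at 31.9, 22.9, 24.7 and 20.6 CPM in SCA1-Low-FAPs. Replicates 2 and 3 of SCA1-High-FAPs exceeded all of SCA1-Low-FAPs and replicates 1 and 4 lay among them. At −0.47 (SE 0.29, interval −1.09 to 0.15) the log2 fold change of *Dgat2* did not pass (adjusted p = 0.393), and it was −0.19 without replicate 3 of SCA1-High-FAPs.

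**Figure D2:**
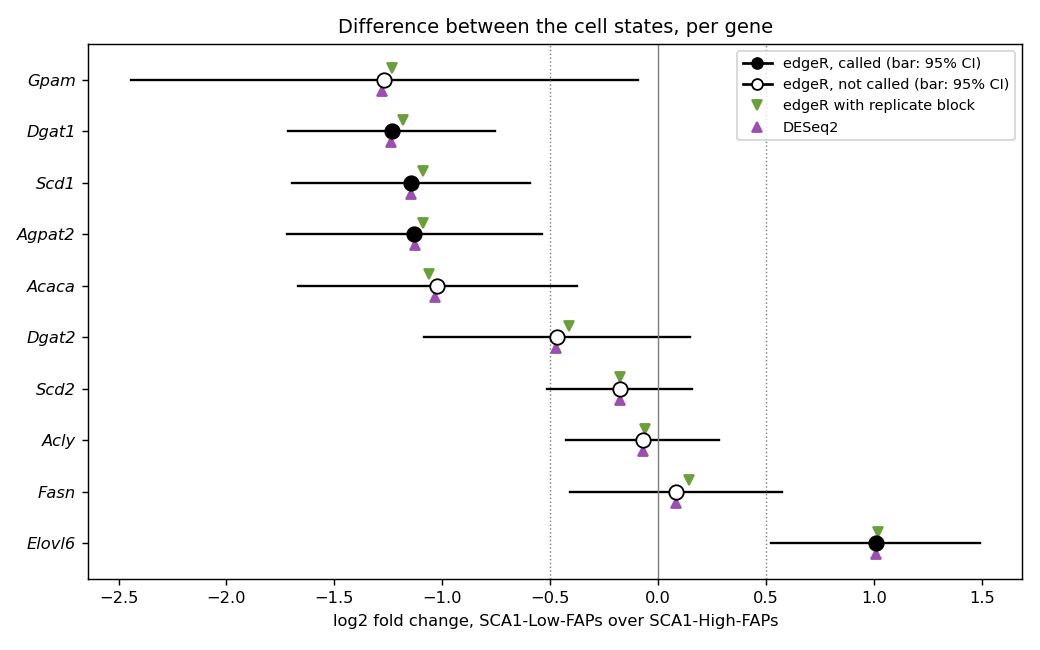
Log2 fold change (SCA1-Low-FAPs divided by SCA1-High-FAPs) for each of the 10 genes (circles with 95% confidence intervals from edgeR, filled where the gene was called; green triangles, edgeR with the replicate number as a block; purple triangles, DESeq2); dotted lines mark the size of 0.5 that a call required. The intervals of *Dgat1*, *Scd1*, *Agpat2* and *Elovl6* lie beyond the dotted lines, and those of *Acly*, *Fasn*, *Scd2* and *Dgat2* include 0.

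With DESeq2 5 of the 10 genes were called, the same 4 and *Acaca*, where 8.53% of 12487 genes passed. With no filter on low counts the same 5 genes passed, against 6.63% of 15873 genes, and with the replicate number as a block the 4 called genes passed, against 6.85% of 10181 genes. Without replicate 4 of SCA1-High-FAPs, the library of its state with the lowest adipocyte markers, the 4 genes and *Acaca* passed. Over all genes 682 were then called, against 782 with all libraries. Without replicate 3 of SCA1-Low-FAPs, the library of its state with the highest adipocyte markers, the same 4 passed. The log2 fold changes were then −1.33 for *Dgat1*, −1.21 for *Scd1*, −1.13 for *Agpat2* and 1.09 for *Elovl6*, and 1017 genes were called over all genes. Without replicate 1 of SCA1-Low-FAPs only *Dgat1* and *Elovl6* passed, with 417 genes called over all genes.

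Adipocyte markers were higher in SCA1-High-FAPs, as were *Scd1*, *Agpat2* and *Dgat1*. Summed over 10 markers they were at 12762, 5122, 8380 and 3150 CPM in replicates 1 to 4 of SCA1-High-FAPs and at 797, 1111, 1491 and 522 CPM in those of SCA1-Low-FAPs. Of the 9 markers tested, 6 passed, all higher in SCA1-High-FAPs, and the libraries did not overlap for any of the 9, whose median log2 fold change was −4.49. *Adipoq*, which encodes adiponectin, passed at −4.72 (adjusted p = 0.0352). The log2 fold changes of *Cfd* (−5.46), *Plin1* (−2.45) and *Fabp4* (−2.77) missed the threshold, with adjusted *p*-values of 0.0534, 0.0751 and 0.101. These calls depend on the fit, since all 3 genes passed in DESeq2 (adjusted p = 8.1e-05, 0.0036 and 0.0035), *Cfd* and *Plin1* also with the block (adjusted p = 0.0018 and 8.3e-05), and *Adipoq* passed in 2 of the 8 fits that left out a replicate. Within SCA1-High-FAPs, replicate 4 was the lowest of its state for 8 of the 10 lipogenic genes and for 9 of the 10 adipocyte markers, and replicate 1 was the highest for 4 and 9. Within SCA1-Low-FAPs the 2 sets did not share an order. There, replicate 4 was the lowest for 7 of the 10 markers, but had the highest lipogenic sum, 919 CPM. Of the 10 lipogenic genes it was the highest for 4 and the lowest for 3. Replicate 2 of SCA1-Low-FAPs had the lowest lipogenic sum, 849 CPM, at a marker sum of 1111 CPM. Summed CPM of the 10 lipogenic genes was 1597, 1269, 1329 and 858 in SCA1-High-FAPs and 849 to 919 in SCA1-Low-FAPs, so that replicate 4 of SCA1-High-FAPs was inside the range of the other state for this sum, but not for the markers. The part of adipocyte-like cells, or of the leucocyte markers, in the differences of the lipogenic genes was not tested. In bulk RNA, fewer cells of a type and less RNA per cell cannot be told apart.

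**Figure D3:**
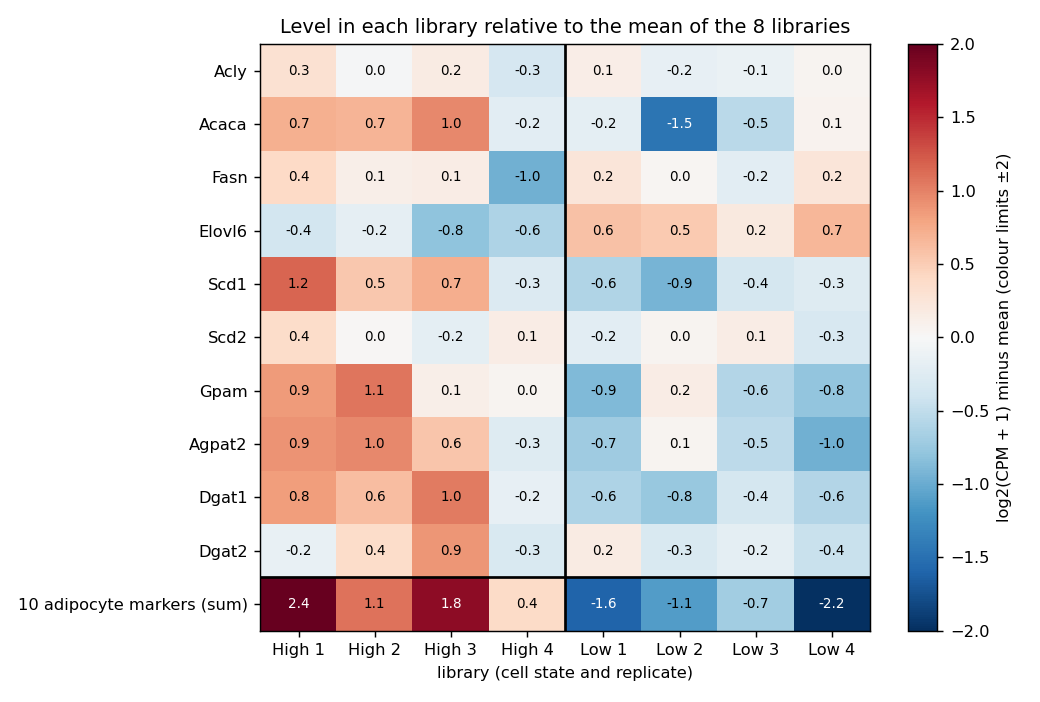
Heat map of each of the 10 genes (upper rows, in the order of the pathway) and of the sum of 10 adipocyte markers (bottom row) in the 8 libraries (columns), as log2(CPM + 1) minus the mean of the 8 libraries, with colours limited to ±2. Replicate 4 of SCA1-High-FAPs is near or below the mean in most rows, *Elovl6* is below its mean in all libraries of SCA1-High-FAPs and above it in all of SCA1-Low-FAPs, and the marker sum is above its mean in all libraries of SCA1-High-FAPs.

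Where several genes encode enzymes for 1 step, the share of each in their joint counts does not depend on the scaling of the library. For 4 such shares the means of the states were compared by exact permutation, two-sided, of the state labels (70 assignments), with adjustment over the 4. *Dgat2* made up 23.7% ± 4.72 (SD, n = 4) of *Dgat1* and *Dgat2* counts in SCA1-High-FAPs and 34.5% ± 4.87 (SD, n = 4) in SCA1-Low-FAPs, with ranges of 16.7% to 26.5% and 30.6% to 41.0% that did not overlap (exact p = 0.0286, the smallest that this design allows, adjusted p = 0.0857). *Agpat2* made up 27.5% ± 6.70 and 14.4% ± 4.70 (SD, n = 4) of the counts of *Agpat1* to *Agpat5* (exact p = 0.0571, adjusted p = 0.0857). *Agpat2* was the only one of these 5 genes that passed the test on its level, the log2 fold changes of the others being 0.24 (*Agpat1*), 0.05 (*Agpat3*), 0.13 (*Agpat4*) and 0.12 (*Agpat5*). The share of *Scd1* in *Scd1* and *Scd2* was 56.3% ± 10.4 and 40.9% ± 7.16 (SD, n = 4), with replicate 4 of SCA1-High-FAPs at 41.2%, among the libraries of SCA1-Low-FAPs (exact p = 0.0857, adjusted p = 0.0857). *Gpam* held 7.51% ± 2.36 and 3.36% ± 2.52 (SD, n = 4) of the counts of *Gpam*, *Gpat3* and *Gpat4* (exact p = 0.0857, adjusted p = 0.0857), in both states behind *Gpat4*, which did not pass on its level (log2 fold change 0.24, adjusted p = 0.540). None of the shares passed after adjustment, and over 4 shares no adjusted value can fall under 0.05 unless 3 or more of them reach the smallest p.

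**Figure D4:**
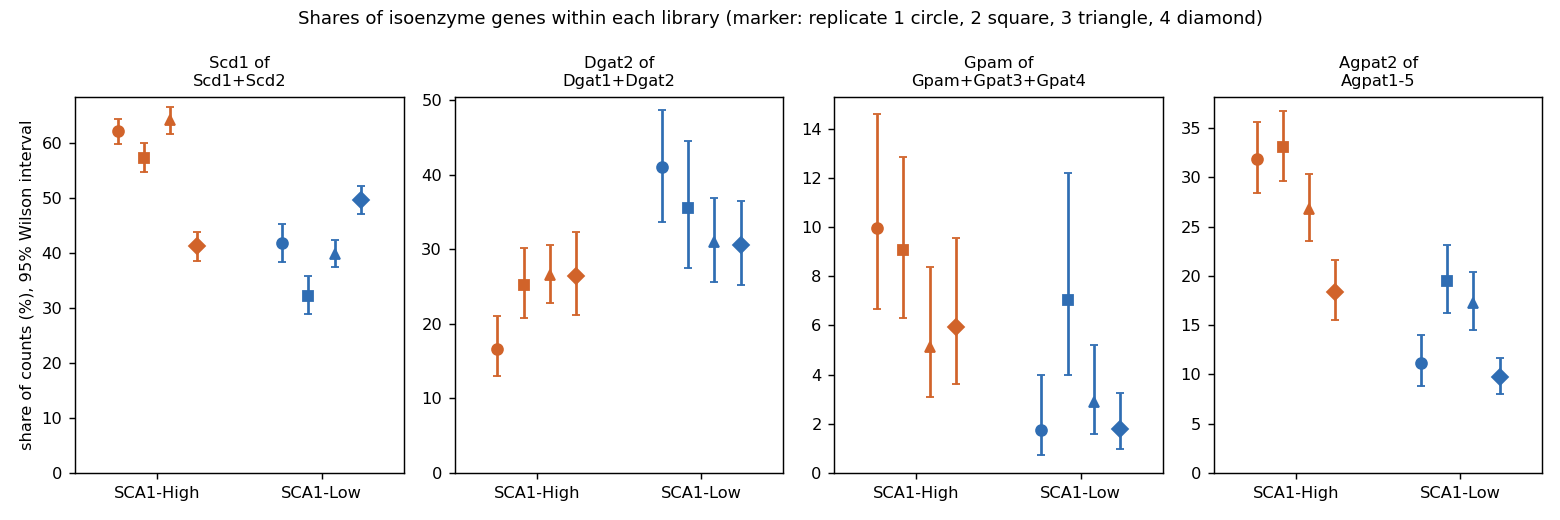
Share of counts (%, vertical axes from 0, a scale for each panel) of *Scd1*, *Dgat2*, *Gpam* and *Agpat2* in the joint counts of the genes named above each panel, per library (orange, SCA1-High-FAPs; blue, SCA1-Low-FAPs; marker shape, replicate), with 95% Wilson intervals that cover counting error only. The states do not overlap for the share of *Dgat2*, and the intervals are wide for *Gpam*, which had 5 to 27 counts.

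The other genes around the pathway were read from the same fit. They formed 5 lists of 84 genes in all, covering the supply of carbon and NADPH, elongation and desaturation, glycerolipid assembly, the phospholipid branch and regulators. Of these, 63 genes were tested and 7 called by edgeR, all of them higher in SCA1-High-FAPs. The share of 11.1% stands against 7.68% of all tested genes called in either direction and 4.36% called higher in SCA1-High-FAPs. An unadjusted *p*-value under 0.05 was found for 16 (25.4%, against 21.3% of all tested genes), and the median log2 fold change was −0.036. Of the supply genes 1 of 9 tested passed (median −0.0095), namely *Idh1*, which makes cytosolic NADPH (−0.93, adjusted p = 0.0262), which passed in 3 of the 8 fits that left out a replicate and not with the block (adjusted p = 0.0619). The citrate carrier gene *Slc25a1*, upstream of *Acly*, was at 0.52 (adjusted p = 0.173), *Mlycd*, whose product breaks down malonyl-CoA, at −0.86 (adjusted p = 0.436) and *Pgd*, of the pentose phosphate pathway, at 0.19 (adjusted p = 0.517). Of 9 further genes of elongation and desaturation (median 0.036), *Hacd3*, a dehydratase that acts later in the same elongation cycle as *Elovl6*, was higher in SCA1-High-FAPs (−0.76, adjusted p = 0.0159, 6 of the 8 fits), in the direction opposite to *Elovl6*. *Fads3* (0.35), *Hsd17b12* (0.19) and *Hacd2* (−0.46) did not pass, with adjusted *p*-values of 0.353, 0.653 and 0.791.

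Of 14 tested genes of glycerolipid assembly (median 0.039), 2 passed. *Gpd1*, which encodes the glycerol-3-phosphate dehydrogenase that supplies the backbone used by *Gpam*, had means of 39.1 ± 19.9 and 3.37 ± 2.39 CPM (SD, n = 4 each) and a log2 fold change of −3.41 ± 0.54 (SE, adjusted p = 0.00178), and it passed in all 8 fits that left out a replicate. *Bscl2*, the gene of seipin, which shapes nascent lipid droplets, was at −0.76 (adjusted p = 0.0181, 4 of the 8 fits). *Lpin1*, whose product makes the diacylglycerol that *Dgat1* and *Dgat2* use, was at −0.84 with no overlap of the libraries, and missed the threshold (adjusted p = 0.0610; 0.0473 in DESeq2). *Gk*, of glycerol kinase, was at 1.08 (adjusted p = 0.340) and *Fitm2* at −0.43 (adjusted p = 0.374). In the phospholipid branch, which competes for diacylglycerol, 1 of 12 tested genes passed (median 0.0027), the choline phosphotransferase gene *Chpt1* (−0.86, adjusted p = 0.0174, 6 of the 8 fits), while *Pcyt1b* (1.09), *Ptdss2* (−0.64) and *Chkb* (−0.47) did not (adjusted p = 0.205, 0.232 and 0.485). *Pcyt1b* passed without replicate 4 of SCA1-High-FAPs (1.74, adjusted p = 0.0484). *Cds1*, also of this branch, had 0 to 14 counts per library, too few for the edgeR test. It was at 1.47 to 6.59 CPM in SCA1-High-FAPs and at 0 to 0.54 CPM in SCA1-Low-FAPs. In DESeq2 it passed (log2 fold change −3.94, adjusted p = 0.0211).

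Of 19 regulators tested (median −0.26), *Cebpa*, a transcription factor of adipogenesis, was higher in SCA1-High-FAPs (−1.05, adjusted p = 0.00279, all 8 fits), as was *Insr*, the insulin receptor gene (−1.46, adjusted p = 0.0291), which passed in 2 of the 8 fits and not with the block (adjusted p = 0.0553). *Insig1*, a target and brake of the sterol element binding proteins, was at −0.69 (adjusted p = 0.0856), *Pparg* at −1.45 (adjusted p = 0.115) and *Akt1* at 0.34 (adjusted p = 0.200). *Pparg* passed in DESeq2 (adjusted p = 0.0206), and its log2 fold change was −0.63 without replicate 1 of SCA1-High-FAPs. *Insig1* passed without replicate 4 of SCA1-High-FAPs (−0.84, adjusted p = 0.0410). *Srebf1*, named here although it fell outside the rule for naming genes, since its product controls *Fasn*, *Scd1* and *Elovl6*, was at −0.73 (SE 0.40, adjusted p = 0.321). Cholesterol synthesis, a sterol branch under related control, had 1 of 16 tested genes called, *Dhcr7* (−1.09, adjusted p = 0.0424, 2 of the 8 fits, 0.0704 with the block), with a median of 0.043. *Fdps* (0.40, adjusted p = 0.141), *Hmgcs1* (−0.26, adjusted p = 0.310) and *Msmo1* (0.24, adjusted p = 0.442) did not pass.

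**Figure D5:**
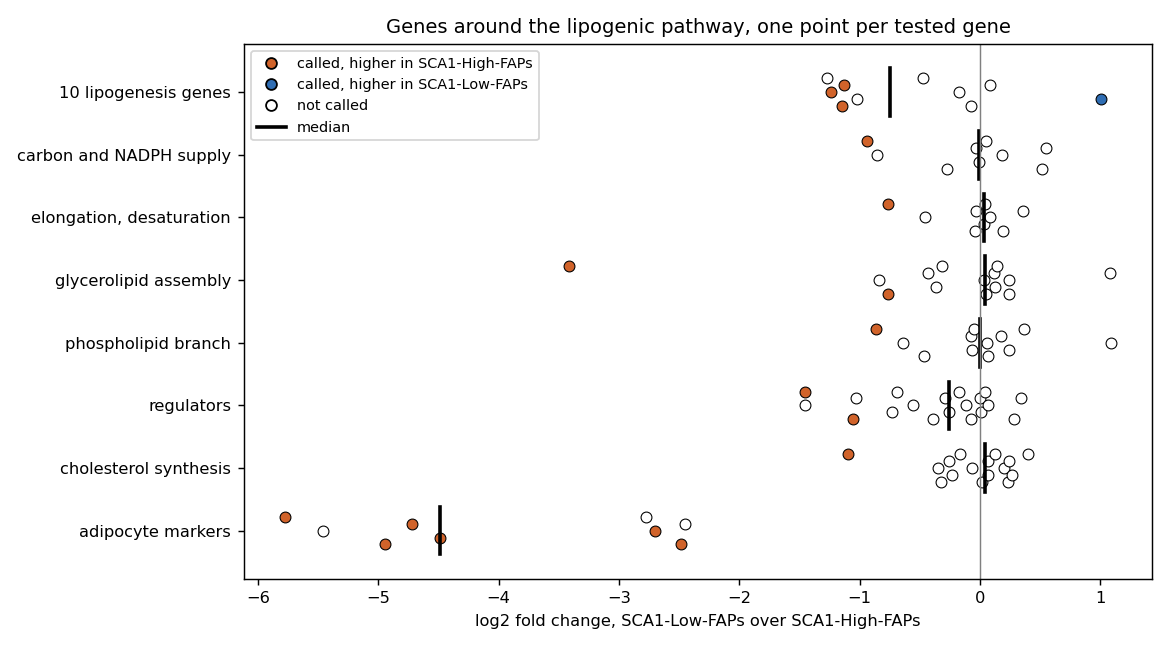
Log2 fold change (SCA1-Low-FAPs divided by SCA1-High-FAPs) (horizontal axis) for each tested gene of the 10 lipogenesis genes, of 5 lists around the pathway, of cholesterol synthesis and of adipocyte markers (rows), filled where called, with the median of each row as a vertical bar. The medians of the supply, elongation, glycerolipid, phospholipid and cholesterol rows lie within 0.05 of 0, that of the 10 lipogenesis genes at −0.75 and that of the adipocyte markers at −4.49.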

How the data were processed

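Per the paper's methods, reads were trimmed, mapped to mm10 with STAR and assigned to the genes of an Ensembl annotation by htseq-count. The authors deposited these whole-number counts for each gene with no normalisation, and molecular identifiers are not mentioned. Entries of htseq-count for reads on no gene were kept out of library sizes; reads on no feature were 7.87% to 10.2% of all reads tallied.

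Of 31053 genes, 30934 were matched by identifier to the GENCODE M21 annotation of GRCm38, from which names and positions were taken. Both cell states entered 1 fit over all 8 samples, tested with the quasi-likelihood method of edgeR 4.0.16 (robust setting, R 4.3.3) with TMM normalisation, Benjamini-Hochberg adjustment over 10181 genes and filterByExpr (10 counts, 15 in total). An adjusted *p*-value is that of edgeR except where DESeq2 (1.42.0) is given as its source. The biological coefficient of variation was 0.279, and 2164 genes had an unadjusted *p*-value under 0.05. Intervals of log2 fold changes come from that fit and cover the spread between samples, while the Wilson intervals of shares and the floor of 3 counts cover counting error only. The replicate numbers 1 to 4 occur in both states, and the sources used here do not say whether they mark the mouse, so that the test took no block. Alternatives were DESeq2, RLE factors, no filter beyond 1 count, the replicate number as a block and each replicate left out. For shares, they were exact sign-flip tests of same-numbered differences, pooled counts and each replicate left out. Scripts were tested on simulated data. Figures and tables were made with Python 3.11.15, pandas 2.3.3, scipy 1.17.1 and matplotlib 3.10.9.

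The 10 genes, the lists around them and the tests were chosen with earlier results of these data known. The genes named are the 10, the called genes of each list around the pathway with the 3 of smallest adjusted *p*-value not called, the genes of the shares, *Ly6a*, and *Adipoq*, *Fabp4*, *Plin1* and *Cfd* of the adipocyte markers. The called markers of the other cell types, the markers at 0, *Itga7*, *Des*, *Cdh15*, *Egfl7*, *Gm20532*, *Srebf1* and *Cds1* were named after their values were seen.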

Additional observations from a re-analysis of the deposited data

Results flagged for a closer look

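Libraries far from the others of their state were searched for in 102 groups of 4, over the named genes and the shares, and 9 were found, where chance gives about 1 in 20. None was among the 20 groups of the 10 lipogenic genes. The share of *Dgat2* in *Dgat1* and *Dgat2* counts was 16.7% in replicate 1 of SCA1-High-FAPs and 25.2% to 26.5% in the others of its state. *Pparg* was at 109.2 CPM in the same library, against 23.4 to 29.8 CPM, and at 27.3 CPM in replicate 3 of SCA1-Low-FAPs, against 12.6 to 14.2 CPM. *Fabp4* stood at 3391 CPM in replicate 1 of SCA1-High-FAPs, against 803 to 1122 CPM, and *Cfd* at 42.8 CPM in replicate 3 of SCA1-Low-FAPs, against 1.63 to 7.73 CPM. *Hmgcs1*, of cholesterol synthesis, was at 391.7 CPM in replicate 4 of SCA1-High-FAPs, against 507.5 to 528.6 CPM, and at 430.7 CPM in replicate 2 of SCA1-Low-FAPs, against 395.4 to 400.2 CPM. *Hsd17b12*, a ketoreductase of fatty acid elongation, was at 157.6 CPM in replicate 4 of SCA1-Low-FAPs, against 99.6 to 103.9 CPM, and *Pcyt1b* at 13.9 CPM in replicate 4 of SCA1-High-FAPs, against 3.62 to 5.18 CPM.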

How the results depend on the processing

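The number of lipogenic genes called ranged from 2 to 5 when single replicates were left out, those higher in SCA1-High-FAPs from 1 to 4 and those higher in SCA1-Low-FAPs from 0 to 1. It was 2 without replicate 1 of SCA1-Low-FAPs and 5 without replicate 4 of SCA1-High-FAPs. Over all genes the number called ranged from 410 to 1017, being 417 and 410 without replicates 1 and 4 and 1017 without replicate 3 of SCA1-Low-FAPs, against 782 with all libraries. The same omissions gave 0 to 1 called gene for supply, for elongation and desaturation and for cholesterol synthesis, 1 to 2 for glycerolipid assembly and for regulators, 0 to 2 for the phospholipid branch and 3 to 8 for adipocyte markers. The correlations of the deviations of same-numbered samples were −0.050 to 0.0067, and no sample of SCA1-High-FAPs correlated best with its own number. Their mean was −0.018, against 0.0051 for samples of different number. Since neither kind of pair was correlated, this check cannot tell whether the numbers mark the mouse. The replicate block left 697 genes called over all genes and 4 of the 10 lipogenic genes, and left 0 supply genes, 0 cholesterol genes and 1 regulator. DESeq2 called 1065 genes, 2 phospholipid genes and 10 adipocyte markers. Signs turned when single replicates were left out for *Acly* (−0.18 to 0.032), *Fasn* (−0.14 to 0.25), *Hsd17b12* (−0.0056 to 0.33), *Hacd2* (−0.77 to 0.16), *Agpat3* (−0.065 to 0.17) and *Agpat5* (−0.016 to 0.22), none of which was called. The cause of these shifts was not tested, and the part of the smaller number of samples in them was not tested either. The other values of single genes kept their direction and side of the threshold in 478 cases, gained a call in 17 and lost one in 49, and the differences in shares moved by less than the spread between replicates. *Gpam*, at 5 to 27 counts per library, had a wide interval (−2.44 to −0.09). Its edgeR *p*-value was 0.0358 before adjustment over all tested genes and 0.194 after it.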
